A study of Mus musculus with 96 samples.

Results

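The 37 genes encoded by the mitochondrial genome were examined in 96 single cells, the 2 daughter cells of each of 48 divisions of cultured horizontal basal cells (HBCs), the stem cells of the olfactory epithelium (OE). The members were all rows of the table of 55487 genes whose symbol begins with mt-, and these are the genes that the files place on the mitochondrial chromosome. They comprise 13 mRNAs, 2 rRNAs and 22 tRNAs. The HBCs came from wild-type mice of 6 to 8 weeks, and the OE was taken 2 days after an injection of methimazole, a toxin that strips the epithelium and activates its stem cells. Males and females were used in the study, and the labels name neither the mouse nor the culture of a cell. All cells therefore form 1 group without replicates, no p-values are given, and every spread or correlation over cells describes these cells. The design asks how alike the transcripts of sister cells are soon after a division. In G&T-seq, RNA with a poly(A) tail is pulled out of the lysate of 1 cell by oligo-dT and amplified as cDNA. ERCC transcripts, which are synthetic RNAs, were added to each lysate as a standard. Each cell is a library of its own.

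The mitochondrial genome of the mouse is a small circle that is present in many copies per cell. It is transcribed on both strands as long precursors by the polymerase Polrmt with the factors Tfam and Tfb2m. The tRNAs lie between most of the other genes, and their excision releases the mRNAs and rRNAs. Most of the mRNAs then receive poly(A) tails, and the rRNAs short ones. How far each transcript was tailed in these cells was not measured. Every protein made is a subunit of the respiratory chain or of the ATP synthase: Nd1 to Nd6 and Nd4l belong to complex I, Cytb to complex III, Co1 to Co3 to complex IV, and Atp6 and Atp8 to complex V. The remaining subunits, all of complex II among them, are encoded in the nucleus.

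The transcripts of the mitochondrial genes are not all distinguishable from nuclear sequence. Among the gene models of the GENCODE M21 annotation of GRCm38, 16 nuclear models shared an identical run of at least 50 bases with a mitochondrial gene. Of these, 7 unprocessed pseudogenes lie side by side on the minus strand of chromosome 1, from 24611535 to 24616197, in the order of the mitochondrial genes from the end of mt-Co1 to the middle of mt-Nd4 (mitochondrial positions 6381 to 11042). Gm28661 matched mt-Co2 over 681 bases, Gm10925 matched mt-Atp6 over 678, Gm28437 matched mt-Co3 over 783, Gm10222 matched mt-Nd4l over 294 and Gm28439 matched the first 876 bases of mt-Nd4, all without a difference. Gm28438 differed from mt-Nd3 by 1 base in 345, T3C, counted from 1 at the start of the gene with the mitochondrial base first. Gm29216 covers bases 1054 to 1545 of mt-Co1 and differed by T1056A, C1057T, A1059G, A1060G, C1062A and A1066T, all near its start. Both windows that hold a difference are shown with the differing bases in capitals, since within these gene models a fragment that covers neither window carries nothing to tell the copy from the mitochondrial gene.
mt-Nd3 (chrM:9459-9491, plus strand): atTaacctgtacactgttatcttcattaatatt
Gm28438 (chr1:24613087-24613119, minus strand): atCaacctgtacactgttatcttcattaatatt
mt-Co1 (chrM:6381-6420, plus strand): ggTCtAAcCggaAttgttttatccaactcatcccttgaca
Gm29216 (chr1:24616158-24616197, minus strand): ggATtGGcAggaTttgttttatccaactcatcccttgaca

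Mitochondrial genes also share bases with one another. The end of mt-Atp8 overlaps the start of mt-Atp6 by 43 bases on the same strand, and mt-Nd4l overlaps mt-Nd4 by 7. The gene of the tRNA for serine, mt-Ts1, lies on the minus strand and overlaps the end of mt-Co1 by 3 bases. The method does not mark strands, so the transcripts of both strands cannot be told apart where they meet. The overlaps are shown in capitals because these bases belong to both neighbours. The rest of each gene is not shared with that neighbour.
mt-Atp8 and mt-Atp6 (chrM:7912-7984, plus strand): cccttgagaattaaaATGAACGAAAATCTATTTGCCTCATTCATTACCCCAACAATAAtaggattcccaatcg
mt-Nd4l and mt-Nd4 (chrM:10152-10188, plus strand): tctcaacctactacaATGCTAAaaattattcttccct
mt-Ts1 (chrM:6870-6938, minus strand): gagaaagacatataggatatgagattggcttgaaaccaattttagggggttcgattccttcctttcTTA

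The deposited counts were not plain numbers of reads. In 3537 of 3552 values (37 genes in 96 cells), the count equalled the StringTie coverage of the gene times its length over 75, rounded up, so that 1 count stands for 75 bases of coverage. The same formula with 150 bases held for 154 values. The counts on genes ranged from 29454150 to 44849003 per cell, and ERCC transcripts took 1.06% to 5.75% of all counts. The HBC markers Trp63, Krt5 and Krt14 were counted in all 96 cells, whereas the median count of the markers of other OE cell types examined was 0. Of the globose basal cell markers, Kit was counted in no cell and Lgr5 in 14 with up to 1296 counts, and of the neuronal markers, Omp was counted in 4, Gng13 in 16 and Gap43 in 22 with up to 2107 counts. Of the other markers examined, the fibroblast genes Col1a1 and Col3a1 were counted in 1 and 2 cells, the leukocyte gene Ptprc in 7, and Cd68 in 74 with a median of 28 counts.

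The 37 members took between 1.12% and 3.84% of the gene counts of a cell, with a median of 1.94% and a mean of 2.05% ± 0.517 (SD over 96 cells). The study required no more than 5% on mitochondrial genes. The 7 copies on chromosome 1 held a further 0.512% ± 0.141 of the gene counts, between 20.4% and 32.6% of what the members held. With them added, the share was 2.56% ± 0.653 and the highest cell had 4.85%, so that no cell passed 5% either way. In the 12 sets of 8 cells into which the names of the deposited data divide the cells, the median share lay between 1.63% (set 9) and 2.65% (set 11), and the cells of all sets overlapped in range.

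Most of the mitochondrial counts lay on mRNAs, with 93.5% ± 2.66 of the total, against 5.95% ± 2.63 on the rRNAs and 0.552% ± 0.103 on the tRNAs. Complex IV mRNAs held 47.0% ± 5.29, complex I mRNAs 29.4% ± 4.35, mt-Cytb of complex III 8.86% ± 1.89 and the complex V mRNAs 8.19% ± 1.11 (SD over 96 cells). The genes mt-Co1 and mt-Nd1 alone held 53.3%. These shares leave out the copies on chromosome 1. Of the gene counts, mt-Atp6 held a mean of 0.134%, its copy Gm10925 0.139% and mt-Cytb, which has no copy, 0.181%. The order of complexes III and V therefore holds only without the copies. The 28 genes of the plus strand took nearly all mitochondrial counts. The 9 genes of the minus strand, mt-Nd6 and 8 tRNAs, took 1.01% ± 0.147. This split goes by the annotated strand of a gene, since the method does not mark strands. mt-Ts1, which overlaps the end of mt-Co1, alone held 0.327%.

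mt-Co1 (ENSMUSG00000064351, chrM:5328-6872) encodes the catalytic core subunit of complex IV, which passes electrons to oxygen. Its counts ranged from 92974 to 696777 with a median of 274890, the highest median of the members. It held 20.0% to 47.8% of the mitochondrial counts of a cell. mt-Co2 (ENSMUSG00000064354, chrM:7013-7696), the subunit that takes electrons from cytochrome c, had 12326 to 55939 counts with a median of 33486.5. mt-Co3 (ENSMUSG00000064358, chrM:8607-9390), the remaining core subunit, had 14577 to 104617 counts with a median of 43049. The highest cell had 7.49 times the counts of the lowest for mt-Co1 and 7.18 times for mt-Co3, but 4.54 times for mt-Co2.

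Among the complex I genes, mt-Nd1 (ENSMUSG00000064341, chrM:2751-3707), a membrane subunit next to the site where ubiquinone binds, led with 46660 to 240011 counts and a median of 116329. mt-Nd5 (ENSMUSG00000064367, chrM:11742-13565), one of the proton-pumping subunits of the membrane arm, had 21252 to 87304 counts with a median of 39662. Its fellow antiporter-like subunits mt-Nd4 (ENSMUSG00000064363, chrM:10167-11544) and mt-Nd2 (ENSMUSG00000064345, chrM:3914-4951) had medians of 24769.5 and 12215 counts, with ranges of 12038 to 51283 and 4325 to 21886. The small membrane subunits had lower counts: mt-Nd4l (ENSMUSG00000065947, chrM:9877-10173) had 2548 to 9793 counts with a median of 4904.5, and mt-Nd3 (ENSMUSG00000064360, chrM:9459-9806) had 824 to 6859 with a median of 2468. mt-Nd6 (ENSMUSG00000064368, chrM:13552-14070), the single mRNA of the minus strand, had 1878 to 9662 with a median of 4046.

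mt-Cytb (ENSMUSG00000064370, chrM:14145-15288), the subunit of complex III that oxidizes ubiquinol, had 30649 to 122471 counts with a median of 60223. mt-Atp6 (ENSMUSG00000064357, chrM:7927-8607) and mt-Atp8 (ENSMUSG00000064356, chrM:7766-7969), subunits of the membrane part of the ATP synthase, had 27381 to 85019 and 6082 to 19187 counts, with medians of 46407.5 and 11173. These complex V genes varied least among the mRNAs: on CPM, the counts scaled to the total of gene counts of the cell, the coefficient of variation over cells was 23.8% for mt-Atp6 and 25.5% for mt-Atp8, against 36.8% for mt-Nd3, the highest of the 13.

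Counts rise with the length of a gene, so levels were compared between genes on TPM, which is scaled for length. On the deposited TPM, mt-Co1 had a median of 7828 (2704 to 17962), followed by mt-Nd1 with 5611 (2225 to 9764) and mt-Atp6 with 3144 (1899 to 5079). mt-Co1 lay above mt-Nd1 in 82 of 96 cells, and mt-Nd1 above mt-Atp6 in 95. The next places could not be separated by their spread: mt-Atp8 with a median of 2533 lay above mt-Cytb with 2443 in 53 cells, and mt-Cytb above mt-Co3 with 2439 in 51. mt-Co2 followed with 2137, below mt-Co3 in 72 cells. A step then led down to mt-Nd5 with 1007, which lay below mt-Co2 in 95 cells. The low end was formed by mt-Nd4 with 833, mt-Nd4l with 784, mt-Nd2 with 545, mt-Nd6 with 356 and mt-Nd3 with 322. mt-Nd6 lay above mt-Nd3 in 49 cells, so that these also were not separated.

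**Figure D1:**
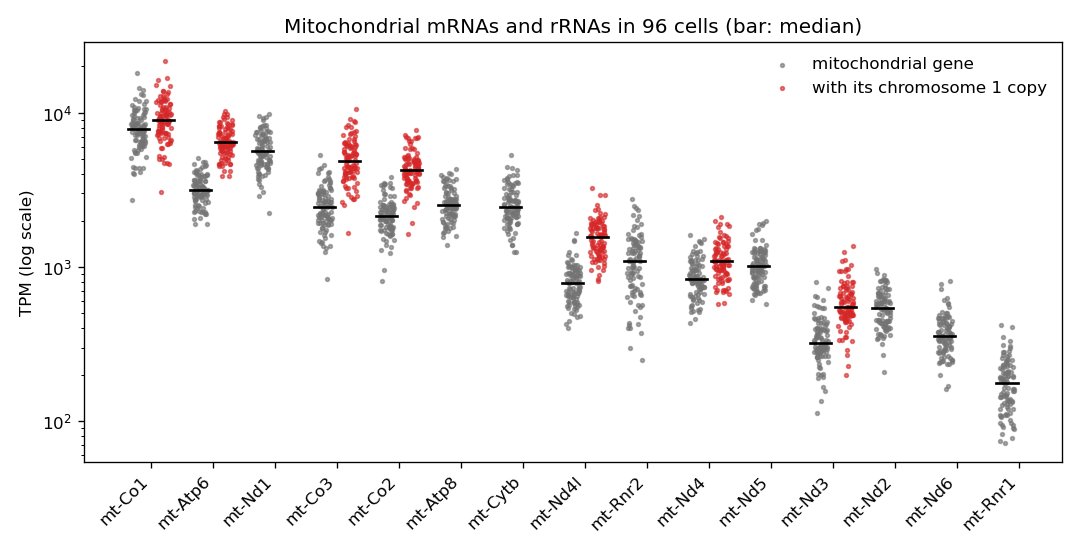
TPM (log scale) of the 13 mRNAs and 2 rRNAs in each of 96 cells (points), with the median as a bar. Grey points are the mitochondrial gene as deposited and red points add the coverage of its chromosome 1 copy. mt-Atp6 moves from a median of 3144 to 6415, above mt-Nd1, and genes without a copy have grey points alone.

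The levels of the nuclear copies followed those of the mitochondrial genes closely. Gm28437 had 0.969 to 1.04 times the TPM of mt-Co3 in all 96 cells, with a median of 1.01. The ratio of Gm28661 to mt-Co2 was 0.983 to 1.06 with a median of 1.01, that of Gm10222 to mt-Nd4l 0.948 to 1.03 with a median of 1.00 and that of Gm10925 to mt-Atp6 1.02 to 1.08 with a median of 1.04. A copy that is identical over nearly the whole gene was thus listed at almost the same level as the gene in every cell. Gm28438, with 1 difference from mt-Nd3, had a ratio of 0.626 to 0.792 with a median of 0.725. The copies of part of a gene were lower: Gm28439 had a median ratio of 0.460 to mt-Nd4 (0.342 to 0.641), and Gm29216 had a median ratio of 0.476 to mt-Co1 (0.372 to 0.698). How reads that match both places were assigned is not given in the sources used here, and transcription of the block on chromosome 1 was not tested.

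**Figure D2:**
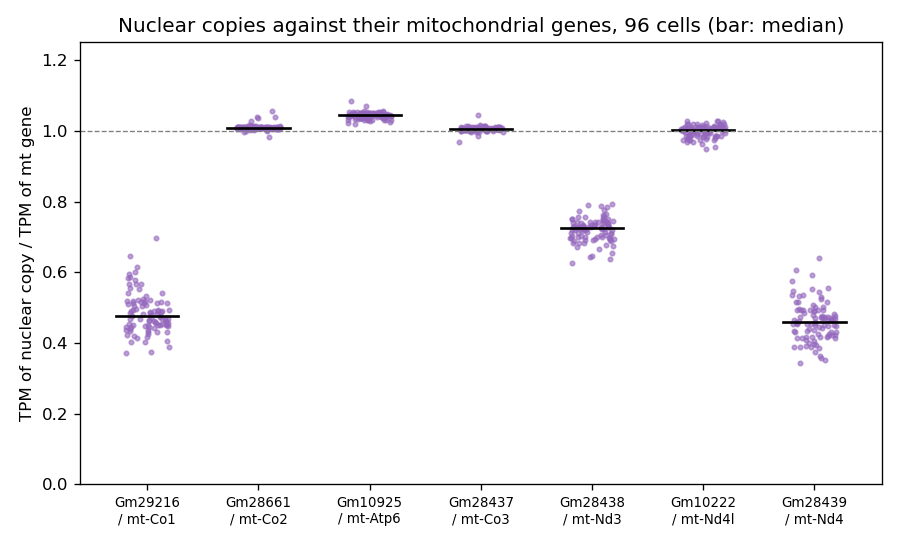
TPM of each nuclear gene model on chromosome 1 divided by that of the mitochondrial gene it copies, for each of 96 cells (points) with the median as a bar. The dashed line marks equal TPM. The 4 copies without a difference that span nearly the whole gene have medians of 1.00 to 1.04, and the others have 0.460 to 0.725.

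The order of the mRNAs changed when the coverage of a copy was added to its gene. mt-Atp6 rose from the third place to the second, with a median of 6415 TPM (3865 to 10322), and lay above mt-Nd1 in 66 of 96 cells. mt-Co3 reached 4896 and mt-Co2 4280, and both medians then lay above those of mt-Atp8 and mt-Cytb. mt-Nd4l reached 1569 and lay above mt-Nd4 with 1088 in 94 cells, and mt-Nd3 reached 551, above mt-Nd6. mt-Co1 stayed highest with 8969 and lay above mt-Atp6 in 91 cells. The genes with a copy were 7 of 13 mRNAs, and the other 6 kept their values. mt-Atp8 and 5 tRNAs lie between these genes on the mitochondrial genome, but the annotation has no gene model for them on chromosome 1, so nothing could be added to them.

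The rRNAs were counted in every cell, and mt-Rnr2 (ENSMUSG00000064339, chrM:1094-2675), the RNA of the large subunit of the mitochondrial ribosome, far exceeded mt-Rnr1 (ENSMUSG00000064337, chrM:70-1024) of the small subunit. mt-Rnr2 had 8887 to 92694 counts with a median of 36736.5, and mt-Rnr1 had 1566 to 8906 with a median of 3618.5. Per length, the medians were 1090 and 177 TPM. Both are ribosomal RNAs captured here through oligo-dT, so their levels are not comparable with those of libraries that capture all RNA. mt-Rnr2 varied more than any mRNA, with a coefficient of variation of 44.8% on CPM and between 1.23% and 12.9% of the mitochondrial counts. In 2 cells it had more counts than mt-Nd1. Its share of the mitochondrial counts followed that of mt-Rnr1 with a Spearman correlation of 0.591 over 96 cells, which was 0.430 for the differences within 48 pairs. The medians of the sets for mt-Rnr2 ran from 2.96% (set 9) to 7.66% (set 6).

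The tRNAs had few counts, with a median over the 22 genes of 65.5 for the median count. All had a count in at least 75 of 96 cells, and 13 had one in every cell. By mean count, the 5 leading tRNAs were mt-Ts1 with 2449, mt-Tl1 with 299, mt-Tm with 154, mt-Ty with 127 and mt-Tn with 116. mt-Ts1 stood apart, with 690 to 7323 counts and a median of 2402.5. It lies against the end of mt-Co1 on the opposite strand, and its CPM had a Spearman correlation of 0.912 with that of mt-Co1 over 96 cells. In mammals the mt-Co1 mRNA is known to run on across the antisense of this tRNA, and without strand the transcripts of mt-Ts1 and mt-Co1 cannot be told apart. The next highest correlation of a tRNA with an mRNA or rRNA was 0.532, for mt-Te with its neighbour mt-Nd6, both on the minus strand. mt-Td, which follows mt-Ts1, had at most 22 counts and was the single member that failed the filter of 10 counts in 10% of cells. mt-Tf and mt-Ts2 had no count in 21 cells each. A mature tRNA has no poly(A) tail and is shorter than a read, so these values describe RNA that contains tRNA sequence.

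Sister cells differed little in the mitochondrial share. The higher sister had 1.15 times the share of the lower at the median of 48 pairs, with quartiles of 1.07 and 1.36. In 5 pairs the ratio reached 1.5, and none reached 2. The smallest difference was that of pair 20, with 2.10% and 2.09%. The largest was that of pair 4, with 2.00% in daughter 1 and 3.84% in daughter 2, a ratio of 1.92. In pair 4 all 13 mRNAs had a higher CPM in daughter 2, but by unequal amounts: mt-Nd5 was 3.08 times higher, mt-Co1 2.49 times and mt-Co3 2.16 times, whereas mt-Atp6 was 1.23 times and mt-Nd1 1.14 times higher. In pair 20, with nearly equal totals, mt-Nd3 had 117 CPM in daughter 1 and 64.3 in daughter 2 and mt-Nd2 had 336 and 410. The intraclass correlation of the log2 share, the part of the variance that lies between pairs, was 0.518. Both sisters of every pair were in the same set, so this part includes differences between sets.

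**Figure D3:**
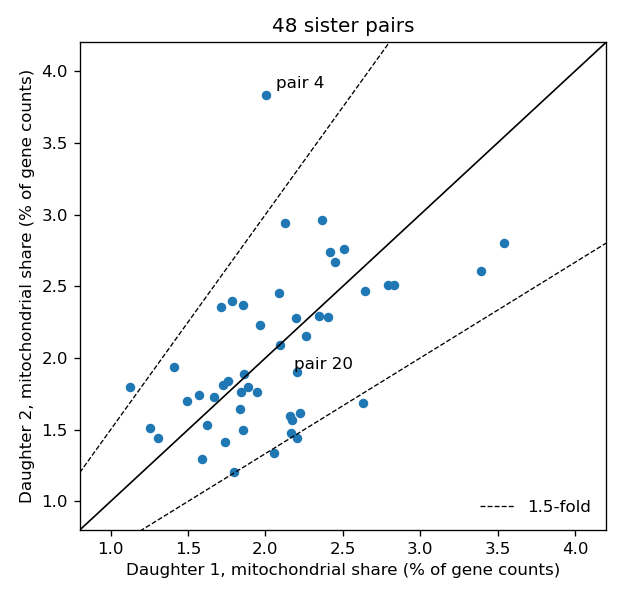
Mitochondrial share of the gene counts (%) in daughter 2 against daughter 1 of each of 48 pairs (points). The solid line marks equal shares and the dashed lines a 1.5-fold difference, which 5 pairs reach. Pair 4 is farthest from the line, with 2.00% and 3.84%, and pair 20 is nearest.

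A share can differ because the mitochondrial or the nuclear transcripts differ, so totals were also scaled to the ERCC transcripts. The normalized mitochondrial total of the higher sister was 1.20 times that of the lower at the median, with quartiles of 1.09 and 1.38, and 7 pairs reached 1.5. The total of the nuclear genes had a median ratio of 1.15, and 3 pairs reached 1.5. Pair 4 was not among the 7: its normalized mitochondrial totals differed 1.13-fold, while its nuclear totals differed 1.72-fold in the opposite direction. The largest mitochondrial ratio, 2.30, was that of pair 47, in which the share was alike (1.88% and 1.80%) and the nuclear total differed 2.19-fold. Pairs 9 and 11 reached 1.5 by both measures. The ERCC size factors of the sisters of pair 47 were 0.387 and 0.735, so this ratio rests on a large correction.

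For single mRNAs, the normalized count of the higher sister reached 1.5 times that of the lower in 138 of 624 combinations of gene and pair, or 22.1%. Among all genes above the filter 65.2% of combinations did. This background depends on the number of counts. It was 55.4% for the 2916 genes with a mean count at least that of mt-Nd3, the lowest mRNA (52.2% on CPM, against 19.2% for the mRNAs), and 29.7% for the 126 genes with a mean count at least that of mt-Co2, the median mRNA. The 7 mRNAs of this last range reached 1.5 in 20.5% of combinations. Each background includes the mRNAs themselves. Among the 126 genes are these 7 mRNAs, mt-Rnr2 and the copies Gm28437, Gm29216, Gm10925 and Gm28661. The number of pairs per gene was lowest for mt-Atp6 and mt-Atp8 with 6 each and highest for mt-Nd6 with 18. The median ratio lay between 1.20 (mt-Cytb) and 1.35 (mt-Nd6). For mt-Rnr1 and mt-Rnr2 it was 1.31 and 1.35, with 13 pairs each at 1.5. For the tRNAs, with their few counts, 62.9% of combinations reached it.

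The ERCC transcripts show how far equal input spreads in these libraries, though they also set the scale. The 6 ERCC transcripts with a mean count at least that of mt-Co2 had median ratios between sisters of 1.08 to 1.14, and at most 1 pair reached 1.5. The 7 mRNAs of that range had median ratios of 1.20 to 1.28 with 6 to 12 pairs. Their ranges did not overlap. At lower counts they did: 13 ERCC transcripts between mt-Nd3 and mt-Co2 had median ratios of 1.09 to 1.76 with 0 to 29 pairs, and the 6 mRNAs there had 1.24 to 1.35 with 6 to 18 pairs.

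Sisters resembled each other in the mRNAs more than the typical gene did, to about the degree of abundant genes as a whole. The intraclass correlation of log2(CPM + 1) had a median of 0.495 over the 13 mRNAs, from 0.303 (mt-Nd3) to 0.657 (mt-Co3), and 6 mRNAs reached 0.5. All genes above the filter had a median of 0.111, and 4.40% reached 0.5. Over genes with at least the mean count of mt-Nd3 the median was 0.215 and 12.3% reached it, and over the 126 genes with at least the mean count of mt-Co2 the median was 0.535 and 63.5% did. The 7 mRNAs of that range had a median of 0.543, and they are themselves among the 126 genes. Both sisters of every pair were in the same set, so differences between sets also count as likeness of sisters. With the mean of each set removed, the median of the 13 mRNAs was 0.374. The other values given here were not recomputed in this way. The highest value of any member was that of mt-Rnr2, with 0.684, and mt-Ts1 had 0.639. The tRNAs ranged from -0.102 (mt-Td) upward with a median of 0.457. The proportions among the transcripts were also alike in sisters: on the share within the 13 mRNAs, mt-Nd1 reached 0.775 and mt-Co1 0.701, and the ratio of mt-Rnr2 to the mRNAs reached 0.777, while mt-Nd4 and mt-Nd4l had 0.201 and 0.222.

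**Figure D4:**
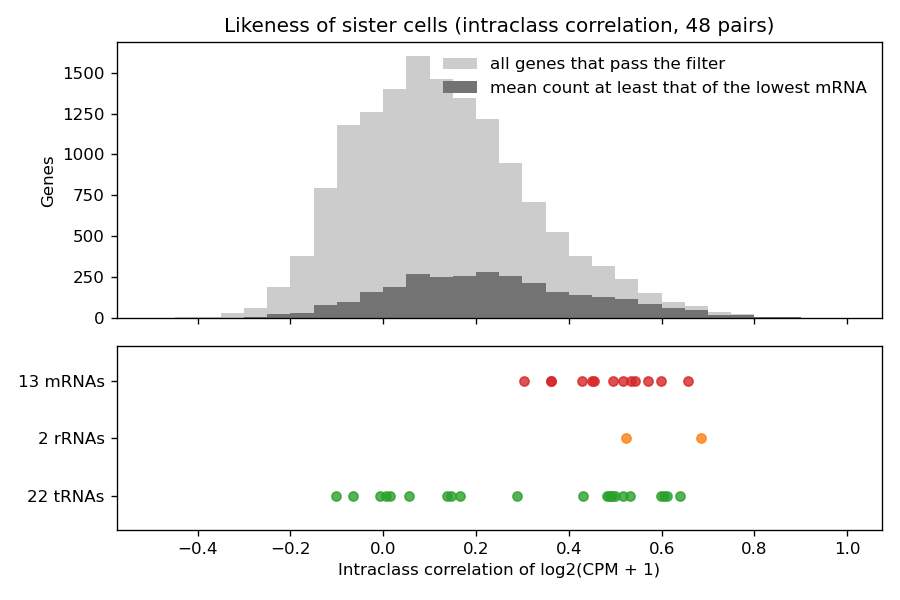
Intraclass correlation of log2(CPM + 1) over 48 sister pairs. The upper panel counts genes per interval, for all genes that pass the filter (light) and those with a mean count at least that of mt-Nd3 (dark), and the lower panel shows each member as a point. The 13 mRNAs lie between 0.303 and 0.657, and the tRNAs spread from -0.102 to 0.639.

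Within a pair the mRNAs tended to differ in the same direction. The same sister was higher in all 13 mRNAs in 13 pairs on ERCC-normalized counts and in 14 on CPM, and in at least 11 of 13 in 27 pairs by either scaling. The 13 values of a cell are all divided by the same size factor or total. Such agreement among other genes was not computed. On the share within the 13 mRNAs, where a rise of one gene must lower others, no pair had all on one side and 4 had at least 11.

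Over the 96 cells, all 78 Spearman correlations between the CPM of 2 mRNAs were positive, from 0.344 (mt-Nd1 and mt-Co2) to 0.885 (mt-Atp8 and mt-Atp6), with a median of 0.614. The cells share library preparation, and each correlation is a description. The median was 0.650 for the differences within sister pairs and 0.0591 on the share within the 13 mRNAs, where the common rise and fall is removed. The mRNAs that share bases ranked high: mt-Atp8 and mt-Atp6 came 1st of 78, mt-Nd5 and mt-Nd6, which overlap by 14 bases on opposite strands, came 4th with 0.789, and mt-Nd4l and mt-Nd4 came 6th with 0.770. mt-Atp6 and mt-Co3, which overlap by 1 base, came 8th with 0.767. The complex IV mRNAs correlated at 0.736 to 0.843, although mt-Co1 and mt-Co2 do not lie beside mt-Co3. On the share within the 13 mRNAs, the complex IV mRNAs correlated at -0.0105 to 0.234. Of the mRNAs that share bases, mt-Atp8 and mt-Atp6 had 0.798, mt-Nd5 and mt-Nd6 0.541, mt-Nd4l and mt-Nd4 0.387, and mt-Atp6 and mt-Co3 -0.0414. mt-Atp6 and mt-Cytb, which share no bases, had 0.505. Complex I mRNAs had a median of 0.596 over 21 combinations, and mRNAs of different complexes a median of 0.610 over 53. On the share of the mitochondrial counts, mt-Co1 and mt-Nd1, which hold most of them, had a correlation of -0.532 over cells and -0.0604 for the differences within pairs.

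**Figure D5:**
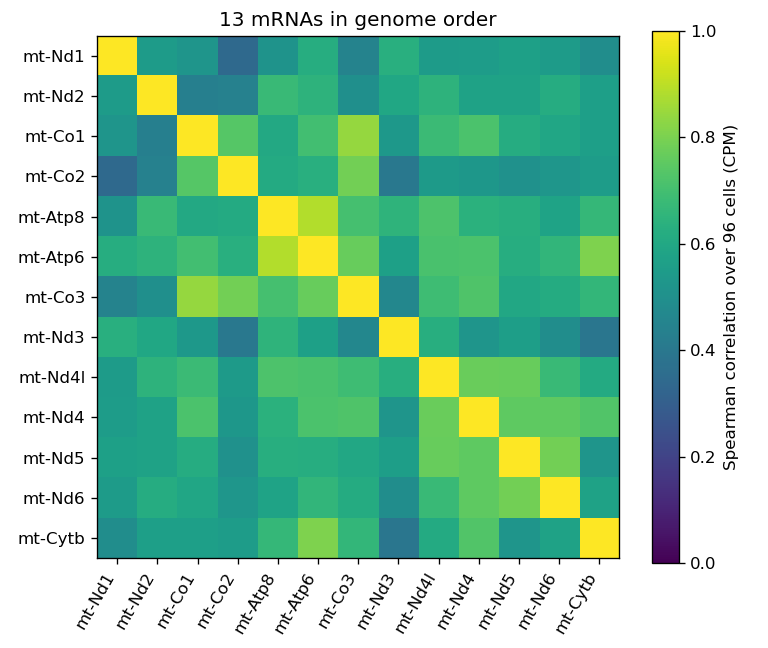
Spearman correlations over 96 cells between the CPM of the 13 mRNAs, in the order of the mitochondrial genome. The brightest square off the diagonal is mt-Atp8 with mt-Atp6 at 0.885, and mt-Nd1 with mt-Co2 is the darkest at 0.344.

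The mitochondrial share was weakly related to the RNA content of a cell. Its Spearman correlation with the gene counts over the ERCC size factor was -0.182 over 96 cells, -0.130 after removing the set means and -0.182 for the differences within pairs. With the gene counts before scaling, a measure of library depth, the correlation was -0.160 over cells and -0.190 after removing the set means. For the differences within pairs it was -0.385. The ERCC-normalized totals of mitochondrial and nuclear counts rose together, at 0.693 over cells and 0.472 for the differences within pairs, but both are divided by the same size factor.

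The nuclear gene models whose CPM (of nuclear counts) most resembled the percent of gene counts on the 13 mRNAs were copies of mitochondrial genes. The 5 highest Spearman correlations over 96 cells were those of Gm28437 (0.881), Gm29216 (0.868), Gm10925 (0.854), Gm28439 (0.838) and Gm10222 (0.798). Of all 14427 nuclear genes, 95% lay between -0.256 and 0.245. Without copies, and named after their values were seen, the highest were Ndufa2 with 0.550 and Ndufa6 with 0.523, which encode accessory subunits of complex I, the lysosomal protease gene Ctsh with 0.520, Ly6e with 0.473 and Tpt1 with 0.469. Ndufa2 had 103 to 476 CPM with a median of 209. Its correlation for the differences within pairs was 0.311, and that of Tpt1 was 0.381.

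The 5 lowest were Eif6, a factor of the biogenesis of cytoplasmic ribosomes, with -0.491, the keratin genes Krt16 (-0.475) and Krt17 (-0.451), Mcm3 of the replicative helicase (-0.439) and Gm11597 (-0.428). Eif6 and Krt17 also had -0.468 and -0.469 for the differences within pairs, while Krt16 and Mcm3 had -0.186 and -0.147. The HBC marker Krt14 had -0.409, Krt5 -0.281 and Trp63 -0.0559. With both sides scaled to ERCC, and so divided by the same size factor, all nuclear genes had a median of 0.192. On that scale Eif6 had 0.136 and Krt17 0.221, while Krt16, Mcm3 and Gm11597 had -0.0117, -0.0589 and -0.0122.

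Nuclear subunits of the respiratory complexes were related to the mitochondrial mRNAs to a varying degree. The subunits were a chosen list of 37 nuclear genes of complexes I to V, which leaves out others such as Ndufa2 and Ndufa6. The list had a median Spearman correlation of 0.121 with the mRNA percent, and 28 genes were above 0. All nuclear genes had a median of -0.0080 with 6859 of 14427 above 0. In complex IV all 9 listed genes were above 0, with a median of 0.295. The most abundant of them were Cox4i1 (0.355), Cox6a1 (0.228), Cox6b1 (0.187) and Cox8a (0.373). Complex I had a median of 0.121 with 6 of 9 above 0, and Ndufv1, a subunit of its NADH-binding module, had -0.00057. Complex II, which has no mitochondrially encoded subunit, had a median of 0.0711 with 3 of 4 above 0, complex III 0.0667 with 4 of 6 and complex V 0.0980 with 6 of 9. For the differences within pairs the median was 0.248 for complex IV and -0.0429 for complex III. Cox4i1 and Cox8a had 0.301 and 0.248 there, and Cox6a1 and Cox6b1 had -0.0923 and -0.0595. The complex V genes were split: Atp5b and Atp5a1, the catalytic head subunits, had -0.256 and -0.220, and Atp5c1 had 0.0980. Per length, the listed nuclear subunits lay below the leading mitochondrial mRNAs. The median TPM was 1678 for Cox4i1 and 1357 for Atp5b, against 7828 for mt-Co1 and 3144 for mt-Atp6.

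Chosen lists of genes that make and maintain mitochondrial RNA and DNA showed medians near that of all genes. The 10 genes of mitochondrial transcription had a median of 0.0122 with 6 above 0, with Tfam at 0.0148 and Polrmt at 0.0606. The median TPM of Tfam was 15.5 and that of Polrmt 3.30. The 17 genes of RNA processing and stability had a median of -0.00022 with 8 above 0. Among them Hsd17b10, a subunit of the enzyme that cuts the 5′ ends of mitochondrial tRNAs, had 0.306, and Lrpprc, which stabilizes mitochondrial mRNAs, had -0.0441. The 9 genes of mtDNA maintenance had a median of -0.0541 with 4 above 0, the single-strand binding protein gene Ssbp1 at 0.105 and the polymerase gene Polg at -0.0758. The 7 regulators of biogenesis had 0.0178 with 4 above 0, with Nrf1 at 0.0178 and Pprc1 at -0.110. The 78 genes of the mitochondrial ribosome had 0.0659 with 54 above 0, among them Mrpl28 (0.153) and Mrpl12 (-0.168).

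Genes often used as a measure of mitochondrial mass had mostly negative correlations with the mRNA percent over cells, but a positive median within pairs and on normalized counts. Of 8 such genes 2 were above 0, and the median was -0.151, with the matrix chaperone genes Hspa9 and Hspd1 at -0.203 and -0.162 and the citrate synthase gene Cs at -0.229. For the differences within pairs the median was 0.134, with Hspa9 at 0.171, Hspd1 at 0.148 and Cs at -0.206, and with both sides scaled to ERCC it was 0.326, where all nuclear genes had a median of 0.192. The 5 mitophagy genes that passed the filter had 0.0267 with 3 above 0, and Sqstm1 and Bnip3l had -0.0901 and 0.0267. The 6 cycling genes had -0.0073 with 3 above 0, and Mki67 and Top2a had 0.0139 and 0.0507. The 5 squamous genes had -0.238 with 1 above 0, namely Sprr1a at 0.104, and Cnfn had -0.247. Of the 5 genes of the integrated stress response none was above 0. Their median was -0.0835, with Atf4 at -0.195 and Asns at -0.174.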

How the data were processed

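Single cells were processed by G&T-seq, and the authors trimmed reads with Trimmomatic 0.39, aligned them with STAR 2.7.11a to GRCm38 with ERCC sequences and quantified genes with StringTie 2.2.1. The authors deposited a table of estimated counts per gene and cell, without normalization, which was used for all values unless stated. The authors also deposited TPM per gene, scaled to the library with ERCC transcripts included. The deposited StringTie coverage, a signal in mean depth per base, was used only to examine how counts were formed. There are no molecular identifiers, so PCR copies are counted.

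Counts were divided by a size factor per cell, computed from the 22 ERCC transcripts (of 92) with a count in every cell as their median ratio to the mean cell, or expressed as CPM of gene counts. Ratios between sisters used a pseudocount of 1 and a cutoff of 1.5. Comparisons across genes used the 14463 genes that reached 10 counts in 10% of the cells. Intraclass correlations were one-way over 48 pairs on log2(CPM + 1). The formula was tested on simulated counts divided by the ERCC size factor, not on CPM, and without differences between sets. No test was run, since the cells form 1 group without replicates. The values were computed in Python 3.11.15 (scipy 1.17.1, pandas 2.3.3, numpy 2.4.6). Nuclear copies were found by identical runs between annotated transcripts of GENCODE M21.

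Members and gene lists were chosen with earlier results of these data known. All mRNAs and rRNAs are named, the 5 tRNAs with the highest mean count, the gene models of the block on chromosome 1, the 5 nuclear genes with the highest and lowest correlation with the mRNA percent, the pairs with the largest and smallest share difference, and some of the more abundant genes of each list. mt-Te, mt-Td, mt-Tf and mt-Ts2 and pairs 9, 11 and 47 were named after their values were seen.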

Additional observations from a re-analysis of the deposited data

Results flagged for a closer look

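Gene models outside the 37 members held counts that follow mitochondrial genes. The 7 pseudogenes of the block on chromosome 1 took a mean of 0.512% of the gene counts over 96 cells, and all 7 had counts in every cell. This was noticed as a signal outside the main measurement, in rows that a share taken from symbols beginning with mt- leaves out. Their share ranged from 0.263% to 1.01% between cells. Outside this block, Gm13340 and Gm13341 on chromosome 2 had mean counts of 834 and 183.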

How the results depend on the processing

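Of 72 recomputed values, 58 stayed within the spread between cells or pairs, within 0.1 for correlations, or within 1.5 times for counts, and 14 moved, none with a change of sign. On the share of TPM, the mean mitochondrial share was 3.74%. The tRNAs took 7.62% and the genes annotated on the minus strand 7.00% of the mitochondrial total, since TPM divides by the short length of tRNAs. On counts without tRNAs, the genes annotated on the minus strand took 0.586%. The number of pairs whose mitochondrial totals differed 1.5-fold was 3 on TPM, 3 with a median of ratios over all genes and 1 at a cutoff of 2. The median intraclass correlation of the mRNAs was 0.374 on deviations from the set mean, and that of all genes was 0 over genes with any count, 0.215 over genes with at least the mean count of the lowest mRNA and 0.535 over those with at least that of the median mRNA. These 2 sets of genes, adding the copies to the share ratio and the set means for the correlations were chosen after the data were seen. The median correlation among mRNAs was 0.759 on ERCC-normalized counts and 0.0591 within the 13 mRNAs. That of the listed nuclear subunits was 0.442 on ERCC-normalized counts, where both sides share the size factor. Leaving out each of the 12 sets in turn gave a mean share of 2.00% to 2.08%, a median share ratio of 1.13 to 1.19 and a median intraclass correlation of 0.431 to 0.559. No paired analysis was possible because there are no groups to pair samples across: all cells form 1 group. The sister pairs enter as ratios, differences and intraclass correlations. The depth limits the tRNAs most, with a median count of 65.5.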
